A study of Mus musculus with 6 samples.

Results

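Macrophage marker genes were examined in whole mammary fat pads of mice with and without Pxmp2, a channel protein of the peroxisomal membrane. A list of 35 genes was used, and a probe set of the array was taken as a member when its annotation gave a single gene symbol equal to one of them. All 35 genes were found, with 67 of the 45037 probe sets on the array. The samples were fat pads 4 and 9 of 6 female mice of C57BL/6J background, 3 wild type (WT) and 3 Pxmp2-/-, 1 array per mouse. Every mouse of both groups had been ovariectomised at 21 days of age, was given estradiol at 31 days to set a common start of puberty, and was killed 8 h later. The series asks whether Pxmp2 is needed for the mammary epithelium to develop, and neither the cells that lack Pxmp2 nor the design of its disrupted allele is stated by the labels. All results come from RNA of the whole pad, in which more macrophages and more RNA per macrophage cannot be told apart.

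Macrophages are phagocytes that depend on the receptor Csf1r and on the transcription factor PU.1, which is encoded by Spi1. In fat they clear dead adipocytes and debris, and around the growing mammary ducts they are known to help the duct ends advance and branch. The members were divided by what they are known to mark. The core genes are those of macrophages, of myeloid cells or, like Ptprc and Cd53, of all leukocytes, and 16 members belong to them. Of the others, 11 mark macrophages resident in tissue, and 8 mark recruited monocytes or activation. These borders are not strict, since one macrophage can carry markers of all of them.

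Array medians lay between 98.5 and 105 arbitrary intensity units, and correlations between arrays between 0.986 and 0.991. The Pxmp2 probe set read 2465 to 2797 in WT and 260 to 308 in Pxmp2-/- mice, as labelled. Adipocyte markers were bright, with 8 of 10 tested. Of 8 epithelial markers, Krt8, Krt18, Krt5, Krt14, Epcam and Elf5 lay below the level filter, so the pads held little epithelial signal. Differences are given below as log2(intensity + 16), Pxmp2-/- minus WT, and 27022 probe sets with a mean intensity above about 59.1 were tested with limma. The brightest tested probe set stood for each gene, and 33 of the 35 members passed the filter. Cx3cr1, a chemokine receptor, and Trem2, a lipid-sensing receptor, did not. Neither read above 54.5 in any mouse.

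No macrophage marker passed the threshold, but most of them read higher in Pxmp2-/- mice. Of 54 tested member probe sets, 0 had a limma adjusted p under 0.05, where 0.0629% of all tested probe sets did. Of the 33 member genes, 28 had a positive difference, against 41.7% of all 12775 tested genes. At an unadjusted p under 0.05, 15 members were higher and 0 lower, against 5.54% and 8.62% of all genes. All 3 Pxmp2-/- mice lay above all 3 WT mice for 14 members and below them for 0, against 7.5% and 15.1% of all genes. The surplus of lower genes over all genes depended on scaling. After quantile normalization the shares were 10.5% above and 9.9% below, with 19 members above and 0 below. The median difference was 0.31 over the members and -0.03 over all tested genes.

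**Figure D1:**
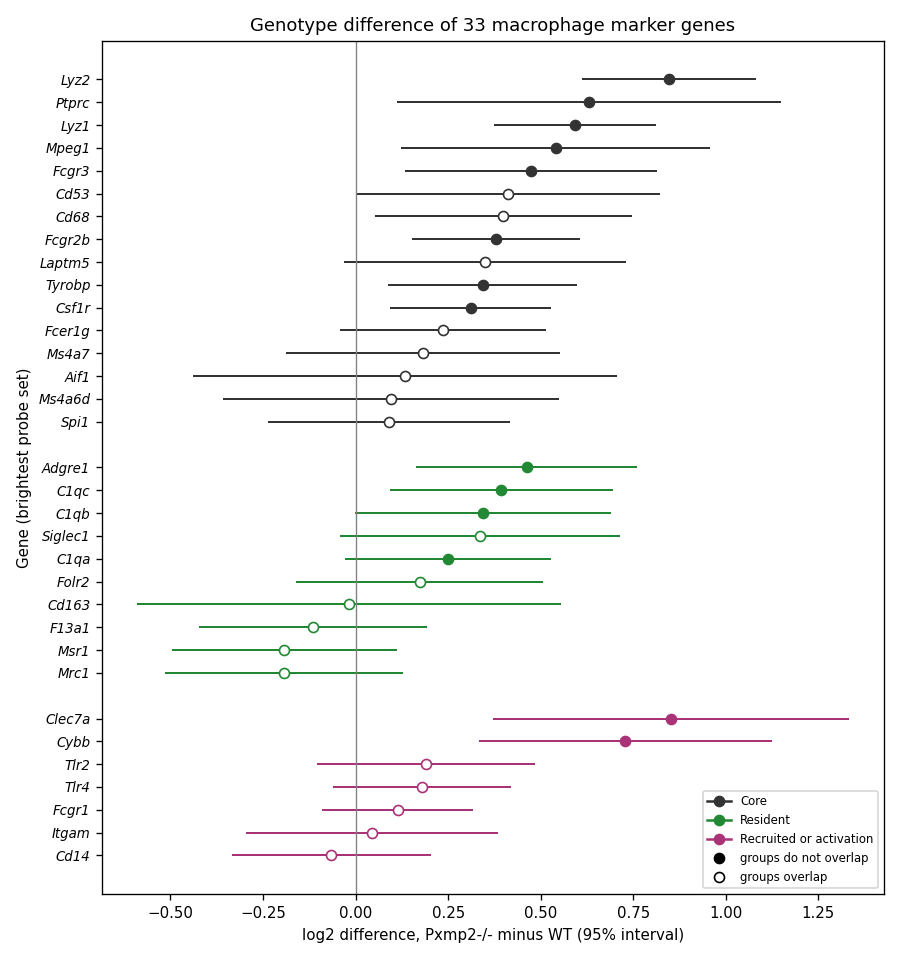
The log2 difference (horizontal axis, Pxmp2-/- minus WT) of each of the 33 tested member genes is drawn with its 95% interval from limma, by role, and filled points are genes whose groups do not overlap. Core genes all lie to the right of 0, with Lyz2 at 0.85, while Mrc1, Msr1, F13a1 and Cd163 among the resident markers lie to its left, of which Cd163 turned to 0.04 after quantile normalization.

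The roles differed in how many of their genes were higher. All 16 core genes had a positive difference, with a median of 0.36, and 10 of them had an unadjusted p under 0.05. The 10 include Lyz1, whose probe sets may share signal with Lyz2. Without Pxmp2-/- 1, 13 of the 16 were positive. Of 10 tested resident markers 6 were positive and 4 negative, with a median of 0.21, and 3 had such a p. Of 7 tested markers of recruitment or activation 6 were positive, with a median of 0.18, and 2 had such a p. Whether the roles differ from one another was not tested.

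Promoters of 5 members are shown with matches to GAGGAA, the core of sites bound by PU.1, since many genes of the list are known targets of this factor. Lyz2, C1qb, C1qc and Clec7a stood higher in all 3 Pxmp2-/- mice, and Mrc1 did not. Each sequence holds the 250 bases before the gene's start in RefSeq (build GRCm38.p6), read 5′ to 3′ on the gene's strand, with GAGGAA or its reverse complement TTCCTC in capitals.
Lyz2, chr10:117282273-117282522, minus strand: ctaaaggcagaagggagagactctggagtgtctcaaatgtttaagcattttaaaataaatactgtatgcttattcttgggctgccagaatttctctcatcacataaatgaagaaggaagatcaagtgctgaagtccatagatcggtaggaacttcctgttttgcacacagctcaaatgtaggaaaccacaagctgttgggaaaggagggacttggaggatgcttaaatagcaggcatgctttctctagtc
C1qb, chr4:136886201-136886450, minus strand: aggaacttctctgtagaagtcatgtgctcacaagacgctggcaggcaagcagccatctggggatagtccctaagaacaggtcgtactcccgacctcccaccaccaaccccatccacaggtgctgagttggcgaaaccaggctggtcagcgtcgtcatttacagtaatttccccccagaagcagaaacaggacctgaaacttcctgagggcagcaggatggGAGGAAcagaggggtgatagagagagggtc
C1qc, chr4:136892915-136893164, minus strand: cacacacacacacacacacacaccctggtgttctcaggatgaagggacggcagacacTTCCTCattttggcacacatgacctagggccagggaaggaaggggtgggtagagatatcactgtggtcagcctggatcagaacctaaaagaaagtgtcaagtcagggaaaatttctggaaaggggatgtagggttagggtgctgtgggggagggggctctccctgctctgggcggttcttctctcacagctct
Clec7a, chr6:129472780-129473029, minus strand: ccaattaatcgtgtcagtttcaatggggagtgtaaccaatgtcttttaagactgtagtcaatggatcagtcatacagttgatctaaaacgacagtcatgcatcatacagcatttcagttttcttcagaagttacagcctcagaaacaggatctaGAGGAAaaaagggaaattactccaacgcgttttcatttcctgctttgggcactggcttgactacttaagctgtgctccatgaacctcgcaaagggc
Mrc1, chr2:14229164-14229413, plus strand: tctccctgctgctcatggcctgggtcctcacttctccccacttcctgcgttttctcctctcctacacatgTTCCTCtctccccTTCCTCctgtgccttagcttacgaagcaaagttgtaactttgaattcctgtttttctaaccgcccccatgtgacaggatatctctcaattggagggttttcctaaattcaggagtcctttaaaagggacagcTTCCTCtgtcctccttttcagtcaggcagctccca
The match lay at bases -30 to -25 from the start in C1qb, at -193 to -188 in C1qc and at -96 to -91 in Clec7a. Mrc1 had 3 matches, and the Lyz2 window had 0. Of the 35 members, 25 had an entry in the promoter table, and 16 of their 31 windows (51.6%) held GAGGAA on either strand, against 23.2% of all 32851 windows of this length. The longer word GAGGAAGT, which contains the shorter one, was found in 1 member window, that of C1qc (3.23%, against 2.44% of all windows). Matches occurred in members that stood higher (C1qb, Fcgr3, Clec7a) and in others that did not (Mrc1, F13a1, Itgam). A match is a description of these letters, and binding was not measured.

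Among the core genes, the lysozymes had the smallest p. Lyz2 encodes the lysozyme of macrophages and neutrophils, which breaks bacterial cell walls. Its intensity was 1314, 1261 and 1363 in the WT mice and 2630, 2140 and 2370 in the Pxmp2-/- mice. Every Pxmp2-/- mouse lay well above every WT mouse. On the log2 scale the genotypes differed by 0.85 ± 0.10 (SE, n = 3 mice each), which is 1.80-fold, and limma gave an adjusted p of 0.0589. This value sat close to the threshold, and over 17 alternative settings the adjusted p ranged from 0.00749 to 0.30 and fell below 0.05 in 6. The difference itself stayed between 0.77 and 0.92.

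Lyz1 is the neighbouring lysozyme gene on chromosome 10, known best from Paneth cells of the gut. Its brightest probe set read 3124, 2821 and 2732 in WT and 4643, 4263 and 4189 in Pxmp2-/- mice, again without overlap. The log2 difference was 0.59 ± 0.09 (SE), with a limma adjusted p of 0.117. The second tested probe set gave 0.62. Both carry the suffix _x_at, which marks probe sets with probes that may also bind other transcripts, and Lyz2 is a close relative of Lyz1. The third probe set of Lyz1, without that suffix, read 14.4 to 32.9 and lay below the filter. Whether Lyz2 RNA adds to the signal under the name Lyz1 was not tested, so the values of Lyz1 are uncertain.

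Csf1r, the receptor for the growth factor that macrophages need to survive, was among the steadiest members. It read 2107, 2195 and 2128 in WT mice and 2942, 2521 and 2543 in Pxmp2-/- mice. The WT mice lay close together and all Pxmp2-/- mice lay above them. Its genotypes differed by 0.31 ± 0.09 (log2, SE), which is 1.24-fold, at a limma adjusted p of 0.216. The other 2 tested probe sets gave 0.31 and 0.29, both without overlap of the groups. Its ligands, from the list of further macrophage genes, were picked after their values were seen. Csf1 read 438 to 459 in WT and 499 to 586 in Pxmp2-/- mice (0.27 ± 0.09), and Il34 read 106 to 125 and 117 to 143 (0.17 ± 0.10, groups overlapping).

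Fc receptors bind antibody-coated targets, and Tyrobp is an adaptor that passes on signals of several activating receptors of myeloid cells. Fcgr2b, the inhibitory receptor of the family, read 362, 378.5 and 402 in WT and 549, 461 and 492 in Pxmp2-/- mice. All 4 tested probe sets of Fcgr2b gave positive differences, from 0.36 to 0.61, and the brightest gave 0.38 ± 0.10 (SE) with a limma adjusted p of 0.191. In 3 of the 4 the groups did not overlap. The activating receptor gene Fcgr3 read 496, 461 and 571 in WT and 870, 614 and 673 in Pxmp2-/- mice, a log2 difference of 0.47 ± 0.15. Tyrobp read 667, 802 and 750 in WT and 1045, 886 and 896 in Pxmp2-/- mice, a log2 difference of 0.34 ± 0.11. For both genes all Pxmp2-/- mice lay above all WT mice. The signalling chain gene Fcer1g, with a difference of 0.24 ± 0.12, overlapped between groups.

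Mpeg1 encodes a pore-forming protein that macrophages direct against engulfed bacteria. It read 511, 412 and 494 in WT and 919, 582 and 615 in Pxmp2-/- mice, a log2 difference of 0.54 ± 0.18 (SE). The groups were apart, with Pxmp2-/- 1 far above the others. Cd68, a glycoprotein of late endosomes and lysosomes, read 196, 280 and 242 in WT and 365, 277 and 316 in Pxmp2-/- mice, so that WT 2 lay above the lowest Pxmp2-/- mouse. Its log2 difference was 0.40 ± 0.15.

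Ptprc, which encodes the surface phosphatase CD45, and Cd53, a tetraspanin, are carried by all leukocytes and not by macrophages alone. Ptprc read 946, 725 and 939 in WT and 1428, 1786 and 955 in Pxmp2-/- mice, a log2 difference of 0.63 ± 0.22 (SE). The groups were barely apart, and Pxmp2-/- 2 was the highest. Cd53 read 510, 430 and 518 in WT and 748, 751 and 487 in Pxmp2-/- mice, with overlap and a log2 difference of 0.41 ± 0.18. These were the only 2 of the 14 members with the smallest p in which Pxmp2-/- 2 was highest. Pxmp2-/- 1 was highest in the other 12. All 5 tested T lymphocyte markers were also highest in Pxmp2-/- 2, and the part of lymphocyte RNA in these 2 genes was not tested.

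The remaining core genes had an unadjusted p above 0.05 and overlapping groups in their brightest probe sets. Laptm5, a lysosomal membrane protein of leukocytes, gave 0.35 ± 0.16 (SE) in its brightest probe set, and its other tested probe sets ranged from -0.03 to 0.34. In the Laptm5 probe set at 0.34 the groups did not overlap. The master regulator gene Spi1 gave 0.09 ± 0.14 (SE), with a 95% interval from -0.23 to 0.41. Ms4a7, Ms4a6d and Aif1 gave 0.18, 0.10 and 0.13. The other tested probe set of Ms4a7 gave 0.41 ± 0.16 and that of Ms4a6d 0.27 ± 0.20, both with overlapping groups. Aif1, the calcium-binding protein also called Iba1, read 251 in Pxmp2-/- 1 and 114 to 151 in the other 5 mice, and its difference turned to -0.18 without that mouse.

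**Figure D2:**
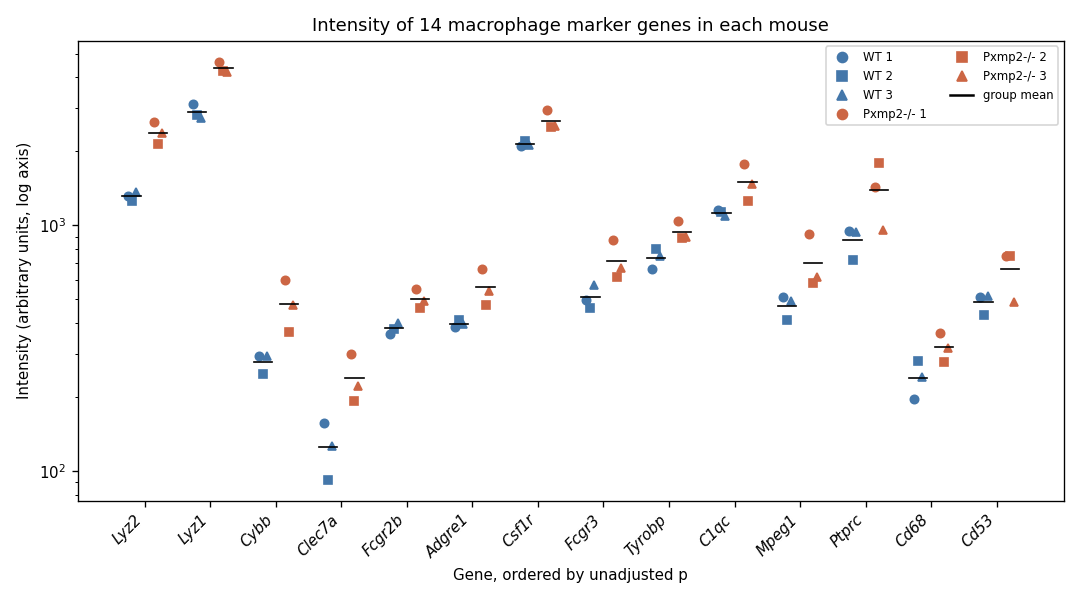
Intensity (log axis, arbitrary units) of the 14 member genes with the smallest unadjusted p is drawn for each mouse, with blue for WT, orange for Pxmp2-/- and a line at each group mean. Groups are apart in 12 of the 14 genes, and the orange circle, Pxmp2-/- 1, is the highest point in 12. The choice by p favours genes whose groups are apart. Of all 33 tested members 14 were apart and higher, against 7.5% of all genes.

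The resident markers were split. Adgre1, which encodes the F4/80 antigen used to stain mouse macrophages, read 387, 412 and 396 in WT and 667, 474 and 539 in Pxmp2-/- mice. The WT mice lay within a narrow range and all Pxmp2-/- mice above it. The log2 difference was 0.46 ± 0.13 (SE), with a limma adjusted p of 0.203. C1qa, C1qb and C1qc encode the chains of complement C1q, which macrophages secrete and which starts the classical complement pathway. C1qc read 1157, 1130 and 1097 in WT and 1771, 1257 and 1473 in Pxmp2-/- mice, a log2 difference of 0.39 ± 0.13. The brightest probe set of C1qb gave 0.34 ± 0.15 and that of C1qa 0.25 ± 0.12, both without overlap between the groups. Of the other tested probe sets of C1qb, 1 gave 0.53 ± 0.10 without overlap and 1 gave 0.37 ± 0.21 with overlap. The brightest and the overlapping one carry the suffix _x_at. The 3 chains thus stood on the same side, and none passed the threshold.

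Of the other tested resident markers, Mrc1, F13a1, Cd163 and Msr1 had negative differences, and Folr2 and Siglec1 had positive ones. All of them had an unadjusted limma p above 0.05. Their separation from Adgre1 and the C1q genes was drawn from these same values. Mrc1, the mannose receptor CD206, read 1544, 1795 and 1663 in WT and 1771, 1372 and 1262 in Pxmp2-/- mice. Pxmp2-/- 1 lay within the WT range and the other 2 Pxmp2-/- mice below all WT mice. The log2 difference was -0.19 ± 0.14 (SE), with a 95% interval from -0.51 to 0.13. F13a1, a clotting factor subunit made by resident macrophages, read 1710, 1858 and 1895 in WT and 2021, 1616 and 1447 in Pxmp2-/- mice. Pxmp2-/- 1 was its highest mouse and the other 2 Pxmp2-/- mice its lowest. Its log2 difference was -0.12 ± 0.13. Cd163, the receptor that takes up haemoglobin, read 956, 740 and 1335 in WT and 1278, 929 and 765 in Pxmp2-/- mice. It varied as much within groups as between them, at -0.02 ± 0.25, and its sign was not stable, with 0.20 without WT 3, 0.15 without Pxmp2-/- 3, 0.01 without Pxmp2-/- 2 and 0.04 after quantile normalization. The scavenger receptor gene Msr1 gave -0.19 ± 0.13, and the folate receptor gene Folr2 0.17 ± 0.14. Siglec1, which binds sialic acid, gave 0.34 ± 0.16 in its brightest probe set and -0.14 ± 0.20 in the other tested one. The intervals of Mrc1 and Csf1r (0.10 to 0.53) overlap, and the difference between these genes was not tested.

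Among the markers of recruitment or activation, Cybb and Clec7a stood apart from the rest. Cybb encodes the catalytic subunit of the phagocyte NADPH oxidase, which makes superoxide. Its brightest probe set read 294, 248 and 294 in WT and 598, 369 and 473 in Pxmp2-/- mice. All 3 Pxmp2-/- mice lay above the WT mice, with a wide spread among them. Its genotypes differed by 0.73 ± 0.17 (log2, SE), which is 1.66-fold, at a limma adjusted p of 0.173. The other 2 tested probe sets gave 0.91 and 0.49, also without overlap. Clec7a, the receptor Dectin-1 for fungal glucans, read 157, 92.3 and 126 in WT and 300, 192.5 and 222 in Pxmp2-/- mice. Its log2 difference of 0.85 ± 0.21, or 1.81-fold, was the largest of the 33 brightest probe sets, and the limma adjusted p was 0.178.

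The other markers of this role had smaller differences in their brightest probe sets. Cd14, the co-receptor for bacterial lipopolysaccharide, gave -0.07 ± 0.11 (SE), and its sign turned to 0.0013 after quantile normalization. Itgam, the CD11b chain of myeloid cells, gave 0.05 ± 0.15 at intensities of only 56.4 to 85.7. The high-affinity Fc receptor gene Fcgr1 gave 0.11 ± 0.09 in its brightest probe set and 0.35 ± 0.16 in the other, where the groups were apart. The bacterial lipid receptor genes gave less than Clec7a and Cybb, with Tlr2 at 0.19 ± 0.13 and Tlr4 at 0.18 ± 0.10. The 4 tested probe sets of Tlr4 ran from -0.16 to 0.18. In the probe set at -0.16 all Pxmp2-/- mice (89.6 to 95.6) lay below all WT mice (103.6 to 108.3). For Cd14 the 95% interval was -0.33 to 0.20, and for Itgam -0.29 to 0.38.

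Probe sets of the same gene mostly pointed the same way. Of 12 members with more than 1 tested probe set, 8 had positive differences in all of them, 1 (Msr1) had negative ones in all, and 3 (Laptm5, Siglec1 and Tlr4) were mixed. The dimmer tested probe set of Msr1 gave -0.18 ± 0.43 (SE), with Pxmp2-/- 1 at 18.3. In it Pxmp2-/- 2 and Pxmp2-/- 3, at 88.6 and 107.8, lay above all WT mice (60.3 to 78.2). Over all 54 tested member probe sets, 24 had all Pxmp2-/- mice above all WT mice and 1 had them below, against 7.73% and 15.1% of all tested probe sets. Of the probe sets under the filter, both of Cx3cr1 were dim (6.64 to 36.2), with differences of 0.43 and 0.29. Those of Trem2 gave 0.19 and -0.40. No order is read from such low values.

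**Figure D3:**
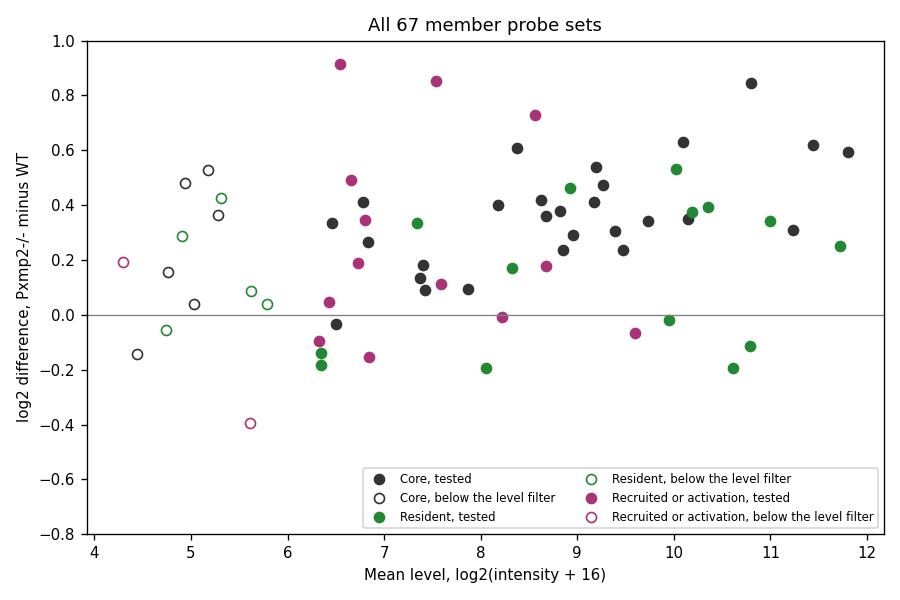
Each of the 67 member probe sets is placed by its mean level (horizontal axis, log2 of intensity + 16) and its log2 difference (vertical axis, Pxmp2-/- minus WT), coloured by role, with open points for those below the level filter. Positive differences occur among dim and bright tested probe sets, with Cybb at 0.91 and Lyz2 at 0.85, and the resident markers near a level of 10.6 (Mrc1) and 10.8 (F13a1) lie below 0.

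Pxmp2-/- 1 had the highest level of most members. Among the 33 member genes the highest of the 6 mice was Pxmp2-/- 1 in 26, Pxmp2-/- 2 in 3, Pxmp2-/- 3 in 1 and a WT mouse in 3. Over all 12775 tested genes Pxmp2-/- 1 was highest in 2240. The median deviation of the core genes from their mean over the 6 arrays was -0.19, -0.16 and -0.14 in the WT mice and 0.40, 0.05 and 0.09 in the Pxmp2-/- mice. All 3 Pxmp2-/- mice thus lay above the WT mice, Pxmp2-/- 1 by far the most. For the resident markers it was -0.11, -0.15 and -0.04 in WT and 0.37, -0.06 and -0.04 in Pxmp2-/- mice, so that only Pxmp2-/- 1 stood out. For the markers of recruitment or activation it was -0.08, -0.13 and -0.12 in WT and 0.19, 0.02 and 0.08 in Pxmp2-/- mice, again with all 3 above the WT mice.

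Without Pxmp2-/- 1 most differences were smaller. The median over the 33 members was 0.18, with 0.29 for the core, 0.08 for the resident and 0.14 for the recruited or activation genes, and -0.05 over all genes. Of the 33 members 24 then had a positive difference, among them 13 of the 16 core genes. The groups were apart for 14 members above and 3 below (Aif1, F13a1 and Mrc1), against 13% and 27.3% of all genes with 1 mouse fewer. At an unadjusted p under 0.05, 11 members were higher, against 5.35% of all genes, and 2 were lower, against 12%. The 2 were Mrc1 (-0.34 ± 0.10, SE) and F13a1 (-0.25 ± 0.10), whose limma adjusted p were 0.163 and 0.232. Groups that are apart with all mice cannot come to overlap when a mouse is left out, so the 14 above could not become fewer. Lyz2 then gave 0.77 ± 0.09, Cybb 0.56 ± 0.14, Clec7a 0.68 ± 0.20 and Adgre1 0.33 ± 0.10. C1qb in its brightest probe set gave 0.19 and Mpeg1 0.34. Of the 33 members, 26 kept their sign in every setting run, and Aif1, Cd14, Cd163, Itgam, Laptm5, Ms4a6d and Spi1 changed it in at least 1.

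Further macrophage genes outside the list, chosen with earlier results of these data known, were more often higher than lower. They are therefore no independent support for the members. Of 44 such genes 40 had a single-symbol probe set and 32 were tested, 22 of them with a positive difference and a median of 0.20. At an unadjusted p under 0.05, 10 of the 32 were higher and 1 lower, against 5.54% and 8.62% of all genes, and 0 had a limma adjusted p under 0.05. Without Pxmp2-/- 1 their median was 0.08, with 8 higher and 3 lower, against 5.35% and 12% of all genes. The 5 with the smallest p were all higher in every Pxmp2-/- mouse than in any WT mouse. Ly86, a partner of a Toll-like receptor, read 239 to 305 in WT and 408 to 641 in Pxmp2-/- mice (0.82 ± 0.17, SE). The lysosomal proteases Ctss and Lgmn gave 0.74 ± 0.16 and 0.38 ± 0.09, the lectin receptor gene Clec4n 0.34 ± 0.08, and Itgb2, the shared chain of the leukocyte integrins, 0.39 ± 0.11.

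The 1 lower gene of these was Dab2, an endocytic adaptor, with 1235 to 1464 in WT and 1081 to 1169 in Pxmp2-/- mice (-0.26 ± 0.10, SE). Chosen after their values were seen, some genes known from resident macrophages had negative differences, in a list where 22 of 32 were positive. Lyve1, the hyaluronan receptor also found on lymphatic vessels, read 425, 539 and 737 in WT and 557, 315 and 222 in Pxmp2-/- mice (-0.68 ± 0.32). Pf4 gave -0.13 ± 0.11, Stab1 -0.10 ± 0.09 and the transcription factor gene Maf -0.14 ± 0.15, all with overlapping groups. The limma adjusted p of these 4 genes lay between 0.331 and 0.652. Clec10a, a lectin of resident macrophages, was positive (0.21 ± 0.19), as was Folr2 above. The monocyte chemokine receptor gene Ccr2 gave 0.22 ± 0.14, and the inflammatory genes Tnf and Ccl2 gave -0.002 and -0.003. Il1b, Nos2, Arg1 and Il10 lay below the level filter.

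Markers of some other cell types differed between the genotypes too, most clearly the MHC class II and endothelial genes. The part of other cell types in the values of the members was not tested. MHC class II genes, shared by macrophages, dendritic cells and B cells, had all 5 tested genes of 7 apart and higher, against 7.5% of all genes, with a median of 0.66 and a summed intensity of 9709 to 11775 in WT and 15063 to 18598 in Pxmp2-/- mice. H2-Eb1 gave 0.84 ± 0.12 and H2-DMa 0.67 ± 0.10 (SE). B lymphocyte markers (5 of 9 tested) had a median of 0.36 and summed to 2072 to 2353 in WT and 2450 to 2781 in Pxmp2-/- mice, with Cd79a, Blk and Fcrla under the filter. Most of this sum was Ighm, at 1281 to 1440 in WT, which differed by 0.14 ± 0.08. Cd79b, Ms4a1 and Pax5 overlapped between groups. Of the 10 tested B lymphocyte probe sets 2 were apart above and 2 below, against 7.73% and 15.1% of all tested probe sets. T lymphocyte markers (5 of 10 tested) had a median of 0.40 and summed to 401 to 539 in WT and 487 to 955 in Pxmp2-/- mice, with Cd3e and Cd4 at 1 to 11.7. All 5 tested T lymphocyte genes overlapped between the groups. By the median of each list, Pxmp2-/- 2 was the highest mouse for T and B cell markers, and Pxmp2-/- 1 for the macrophage and MHC class II genes.

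Dendritic cell markers (3 of 9 tested) had a median of 0.16, with Itgax apart and higher (0.44 ± 0.14, SE) and Zbtb46 at -0.31 ± 0.17. They summed to 481 to 641 in WT and 447 to 571 in Pxmp2-/- mice, and Flt3, Xcr1, Cd209a, Ccr7 and Ccl22 lay below the filter. The defining neutrophil genes Cxcr2, Ngp, Camp, Mpo and Elane also lay below it, at 2.93 to 39.8, and the 3 tested neutrophil markers summed to 484 to 576 in WT and 530 to 616 in Pxmp2-/- mice. Lyz2 is shared with neutrophils. NK cell markers (4 of 6 tested) had a median of -0.01, mast cell markers (5 of 7) 0.19 and lymph node stroma markers (3 of 7) 0.10, with overlapping groups for all tested genes. Endothelial markers were lower, with 7 of 10 apart, against 15.1% of all genes, and a median of -0.29, and adipocyte markers (8 of 10 tested) had a median of -0.03 and summed to 82923 to 88404.5 in WT and 82177 to 85199.5 in Pxmp2-/- mice. The 2 tested epithelial genes went opposite ways, with Cdh1 at 1.01 ± 0.36 and Trp63 at -0.56 ± 0.24 (SE).

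**Figure D4:**
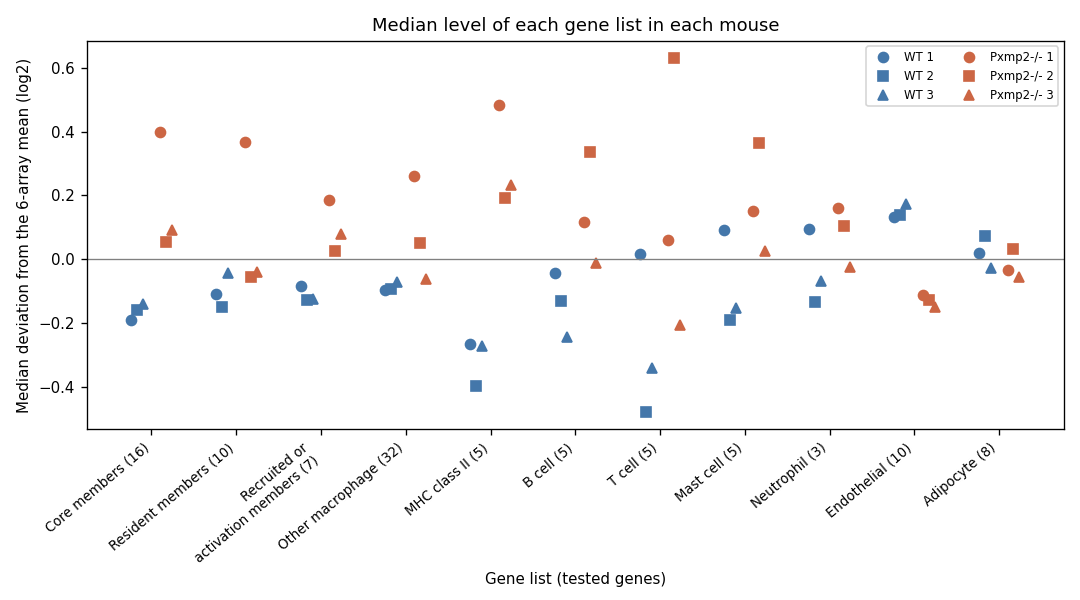
For each gene list (horizontal axis, number of tested genes in brackets) the median deviation of its genes from their mean over the 6 arrays (vertical axis, log2) is drawn for each mouse. The core members are highest in Pxmp2-/- 1 (0.40) and the T cell markers in Pxmp2-/- 2 (0.63), while the endothelial markers are lower in all 3 Pxmp2-/- mice.

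The members are spread over 15 chromosomes in the RefSeq gene table, and 0 of the 35 lie on chromosome 5, which carries Pxmp2.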

How the data were processed

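Per the labels' protocols, biotin-labelled RNA was hybridised to 6 Affymetrix arrays. The deposited values are linear intensities, and the sources used here do not give how the authors summarised or scaled them. Groups and replicate numbers came from the sample titles, which number the mice within each genotype. No further scaling was applied, and log2(intensity + 16) was taken. Probe sets above the 40th percentile of mean log2 level were tested, 27022 of 45037. The test of genotype was that of limma 3.58.1 (R 4.3.3; eBayes, two-sided), with p-values adjusted by Benjamini-Hochberg across the tested probe sets and called at 0.05. The limma fit was also run on simulated data with noise drawn independently for each probe set. That run does not bear on the counts over gene lists. The platform annotation named 34945 probe sets with 1 symbol. All members are accounted for, and single mice are given for the 14 members with the smallest p and for Mrc1, F13a1 and Cd163. Members, roles and lists were chosen with earlier results of these data known. A planned comparison of the lysozyme proteins was not run. Same-numbered arrays were not taken as pairs, since the mice are numbered within each genotype. Deviations of same-numbered arrays did not all correlate, which cannot decide whether they were paired. Alternatives were other normalizations, pseudocounts of 1 and 64, other level filters, a variance trend, array weights, the replicate block, other choices of probe sets and leaving out each array. The precision is limited by 3 arrays per group. Plots were drawn with matplotlib 3.10.9.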

Additional observations from a re-analysis of the deposited data

How the results depend on the processing

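The count of 0 member probe sets past the limma threshold became 1, that of Lyz2, after quantile normalization, median centring, a pseudocount of 64, the 60th percentile filter or array weights, and 3 (Lyz2 and both tested probe sets of Lyz1) with a mean-variance trend. It stayed at 0 under the other settings, leaving out single arrays included. Over all tested probe sets the count of 17 became 1 with no level filter, 34 with the trend, 26 with array weights, 5 with 1 probe set a gene, and 1 to 33 when single arrays were left out (6, 2 and 1 without WT 1, 2 and 3, and 33, 1 and 1 without Pxmp2-/- 1, 2 and 3). With the replicate number as a block it was 1, with 0 members called. Deviations of same-numbered arrays correlated at 0.022, 0.044 and -0.12, and those of differently numbered arrays at -0.16 to 0.14. With 3 arrays per group such correlations cannot decide whether the arrays were paired. The median over the members ranged from 0.18 to 0.34 when single arrays were left out, and the cause of its fall without Pxmp2-/- 1 was not tested. At an unadjusted p under 0.05, 708 genes were higher and 1101 lower, and 953 and 650 after quantile normalization, where 18 members were higher and 0 lower. Among the 14 members with the smallest p no difference changed sign. They were picked by that p in these same data, so their steady sign is no separate support. The number of arrays limits the precision, and the 95% interval of Csf1r, 1 of the steadiest members, ran from 0.10 to 0.53.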
